A study of Mus musculus with 6 samples.

Results

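The genes described here were the fibroblast growth factors (FGFs) Fgf1, Fgf2, Fgf7, Fgf9, Fgf10 and Fgf18 and the receptors Fgfr1, Fgfr2, Fgfr3 and Fgfrl1. They were picked by gene symbol, 10 of the 46603 gene identifiers counted, and all 10 passed the filter on low counts. The samples were 6 bulk poly(A) RNA libraries of cultured glia of the mouse intestine, which the study calls enteric glial cells (EGCs), from wild-type C57BL/6J mice. To obtain these cells, intestine of E14.5 embryos was grown as free-floating neurospheres for 1 week in medium with 40 ng/ml EGF and 20 ng/ml FGF, and the cells were then grown attached in medium with 10% fetal bovine serum until confluent. The comparison was between 3 samples of cells that received lipopolysaccharide (LPS, a component of the bacterial outer membrane) at 100 ng/ml for 12 h and 3 samples of untreated control cells. Both groups had therefore been exposed to added FGF at the neurosphere stage, and the labels did not say which FGF it was. The labels gave replicate numbers but did not state whether replicates came from separate litters or cultures, so the p-values measure the spread between these libraries, which may be technical.

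FGFs are secreted proteins that bind heparan sulfate on the cell surface and, together with it, activate receptor tyrosine kinases of the FGFR family. The activated receptor passes its signal through adaptors such as Frs2 and Grb2 to the MAP kinase cascade and through phospholipase C gamma, and the pathway induces its own inhibitors of the Sprouty and Spred families. In the developing gut, Fgf7 and Fgf10 are made by mesenchyme and act on epithelium through the IIIb splice form of Fgfr2, whereas Fgf2 is a widely used mitogen of neural progenitors and glia.

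The upstream sequences of 3 ligands are shown: Fgf7, which rose with LPS, Fgf10, its closest relative among the 10 genes, and Fgf18. Fgf10 was higher and Fgf18 lower in each LPS library than in any control library, and neither passed the edgeR test. Each sequence is the 250 bases before the start of the gene in RefSeq (GRCm38.p6), printed 5′ to 3′ on the strand of the gene, at chr2:126034408-126034657 on the plus strand for Fgf7, chr13:118714449-118714698 on the plus strand for Fgf10 and chr11:33147401-33147650 on the minus strand for Fgf18. Capitals mark CpG dinucleotides.
Fgf7: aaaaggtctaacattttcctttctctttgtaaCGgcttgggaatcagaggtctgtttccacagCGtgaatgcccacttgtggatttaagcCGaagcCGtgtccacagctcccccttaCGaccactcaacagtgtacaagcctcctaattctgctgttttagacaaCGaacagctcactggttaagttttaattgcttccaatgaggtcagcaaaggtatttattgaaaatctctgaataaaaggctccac
Fgf10: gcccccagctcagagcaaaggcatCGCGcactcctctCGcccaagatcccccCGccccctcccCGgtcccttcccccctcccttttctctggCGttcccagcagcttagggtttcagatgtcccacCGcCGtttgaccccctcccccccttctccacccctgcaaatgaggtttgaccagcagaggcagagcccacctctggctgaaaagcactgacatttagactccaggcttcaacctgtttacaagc
Fgf18: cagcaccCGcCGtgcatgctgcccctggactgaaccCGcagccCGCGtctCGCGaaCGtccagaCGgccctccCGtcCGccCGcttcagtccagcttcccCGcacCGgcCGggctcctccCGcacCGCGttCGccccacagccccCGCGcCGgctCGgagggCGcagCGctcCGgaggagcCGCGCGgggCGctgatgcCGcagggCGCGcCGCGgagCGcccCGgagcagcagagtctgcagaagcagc

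The window of Fgf18 held 37 CpG dinucleotides at a GC content of 77.2%, more CpG than 97.8% of the 32851 promoter windows in the RefSeq table. The windows of Fgf7 and Fgf10 held 6 and 8, near the median of 6 over all windows. Their GC contents were 43.6% and 61.2%, against a median of 52.4%. Of the 10 genes, 8 had an entry in the table. Fgf1 and Fgfr1 had none, and Fgfr3 had an entry for each of its starts. A search of both strands for the letters TATAAA, the core of the promoter element that positions the start of transcription, found them in 0 of these 8 genes and in 12.4% of all windows. The letters of the AP-1 site, TGAGTCA, were likewise in 0 of the 8 and in 4.46% of all windows. This describes only these letters in these windows.

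The 6 libraries held 18775316 to 23664312 counts. Values are given as CPM, counts scaled to a common library size after correction for composition, and 3 counts, taken as the detection floor, equalled 0.124 to 0.167 CPM. The floor covers counting error only. Of the 8 glial markers, 7 were tested, and by edgeR 1 was called higher with LPS and 1 lower, where 9.09% of all genes were called higher and 6.71% lower. Sox10 was at 73.8 to 100.6 CPM in control and 75.9 to 78.2 CPM in LPS and was not called. S100b fell, with 20.5 to 24.7 CPM in control and 3.45 to 9.36 CPM in LPS (edgeR adjusted p = 0.0238), and Fabp7 rose, with 2.26 to 2.73 CPM in control and 5.33 to 7.40 CPM in LPS (edgeR adjusted p = 0.0122). The summed level of 8 mesenchymal markers, among them Col1a1, was 17227 to 17672 CPM in control and 16854 to 17502 CPM in LPS, and 2 of the 8, Dcn and Pdgfra, were called higher. Markers of cell types other than glia were thus abundant, and in bulk RNA fewer cells of a type and less RNA per cell cannot be told apart. The sum of 12 macrophage markers was 4103, 5316 and 12613 CPM in control replicates 1, 2 and 3 and 4040, 5235 and 20188 CPM in LPS replicates 1, 2 and 3, so that the libraries numbered 3 stood apart in both groups. Its members moved in both directions, with Adgre1 called higher in LPS (log2 fold change 2.78, edgeR adjusted p = 0.0452) and Mrc1 at -3.08 (edgeR adjusted p = 0.145), and the replicate block called 4 of the 12 higher and 3 lower, beside 15.4% and 14.9% of all genes. All 8 smooth muscle markers fell with LPS, and their sum was 2424 to 2715 CPM in control and 701.5 to 991 CPM in LPS. Calls are also given without both libraries numbered 3, a choice made after seeing the data, for the 10 FGF genes and the lists of FGF signalling whose calls this changed.

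First, LPS and control libraries were compared for the FGF genes. By the edgeR quasi-likelihood test, 1 of the 10 genes rose (Fgf7) and 1 fell (Fgf1), against 15.8% of all 15226 genes called in either direction, 9.09% higher and 6.71% lower. The control and LPS libraries did not overlap in 7 of the 10 genes, with Fgf2, Fgf7 and Fgf10 higher and Fgf1, Fgf18, Fgfr2 and Fgfr3 lower in LPS, whereas 38.7% of all genes had no overlap. Within the same-numbered pairs of libraries, 9 of the 10 genes moved the same way in all 3 pairs, against 65.6% of all genes, and Fgf9 was the exception. For the 7 genes without overlap this was fixed in advance, so of the 9 only Fgfr1 and Fgfrl1 add to it. The pairs were taken from the data and not from the labels, and the data did not tell pairs 1 and 2 from each other. With the replicate number as a block, the same test called 2 genes higher (Fgf2, Fgf7) and 2 lower (Fgf1, Fgf18), against 15.4% and 14.9% of all genes, together 30.3%. Without both libraries numbered 3 it called 3 higher (Fgf2, Fgf7, Fgfr1) and 3 lower (Fgf1, Fgf18, Fgfr2), against 22.6% and 20.4% of all genes, together 43.0%. The median log2 fold change of the 10 genes was -0.03, beside -0.02 over all genes tested.

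**Figure D1:**
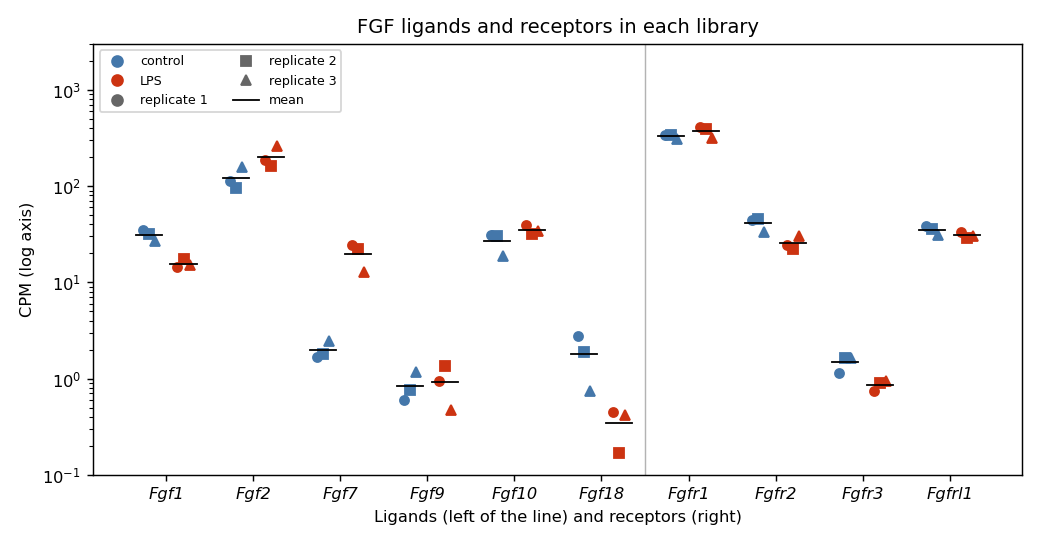
Level of each FGF gene in each library, in CPM on a log axis, with control in blue and LPS in red, the replicate number as the marker shape and the group mean as a line. Fgf7 lay between 1.69 and 2.44 CPM in control and between 12.7 and 24.6 CPM in LPS, and the groups of Fgf9, Fgfr1 and Fgfrl1 overlapped.

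Fgf7, also named keratinocyte growth factor, showed the largest difference of the 10 genes (ENSMUSG00000027208, chr2:126034658-126091185, GRCm38, plus strand, protein coding). Its level was 1.69, 1.81 and 2.44 CPM in control replicates 1, 2 and 3 and 24.6, 22.3 and 12.7 CPM in LPS replicates 1, 2 and 3. Every LPS library was above every control library, and LPS replicate 3 was the lowest of its group while control replicate 3 was the highest of its own. The log2 fold change was 3.32 (SE 0.31, 95% confidence interval 2.55 to 4.09, edgeR adjusted p = 0.00273), which is a 9.99-fold higher level. Macrophage markers as a sum were highest in the libraries numbered 3, and single ones differed between LPS and control, and their part in the Fgf7 values was not tested. Of the mesenchymal markers, 2 of 8 were higher in the same LPS libraries. These were Dcn (log2 fold change 0.90, edgeR adjusted p = 0.0118) and Pdgfra (0.50, edgeR adjusted p = 0.0114). The other 6 were not called, and among them Lum was at -0.73 (edgeR adjusted p = 0.0775). Under blocking by replicate number, Lum passed as lower, at -0.75 (edgeR adjusted p = 0.00581). The 8 markers then gave 2 higher and 1 lower, beside 15.4% and 14.9% of all genes. Any part of these mesenchymal markers in the rise of Fgf7 was not tested. By pair, Fgf7 was 14.52-fold, 12.3-fold and 5.22-fold higher in LPS. It was called in all 15 alternative analyses, with log2 fold changes between 3.14 and 3.76 and edgeR, limma or DESeq2 adjusted p-values of at most 0.0276.

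Fgf1, acidic FGF, a ligand that can bind all FGF receptors and lacks a classical secretion signal, was the gene that fell (ENSMUSG00000036585, chr18:38838673-38929472, minus strand). Control replicates 1, 2 and 3 held 35.2, 31.6 and 27.2 CPM, and LPS replicates 1, 2 and 3 held 14.3, 17.5 and 15.1 CPM. The lowest control library was above the highest LPS library. Fgf1 fell by 1.01 on the log2 scale (SE 0.14, edgeR adjusted p = 0.00894), and the ratio of control to LPS was 2.47, 1.81 and 1.81 in pairs 1, 2 and 3. The call was lost in 1 of 15 alternatives, without control replicate 2, where the edgeR adjusted p was 0.0578 with a log2 fold change of -0.99. The smooth muscle markers described above were lower in the same libraries, and their part in the fall of Fgf1 was not tested.

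Fgf2, basic FGF, was the most abundant ligand per kilobase of exon in both groups (ENSMUSG00000037225, chr3:37348346-37410108, plus strand). Its level was 113, 95.1 and 157 CPM in control replicates 1, 2 and 3 and 185, 162 and 259.6 CPM in LPS replicates 1, 2 and 3. Replicate 3 was the highest library of each group, and the groups did not overlap, although control replicate 3 came close to LPS replicate 2. Without the pairing, the log2 fold change of 0.73 (SE 0.25, 95% confidence interval 0.12 to 1.35) did not pass the test, with an edgeR adjusted p of 0.105. The ratio of LPS to control was 1.64, 1.71 and 1.66 in pairs 1, 2 and 3. These ratios rest on the replicate numbers, and the data did not tell pairs 1 and 2 from each other. With the replicate block Fgf2 was called, at a log2 fold change of 0.74 and an edgeR adjusted p of 0.0024. It was also called without both libraries numbered 3 (edgeR adjusted p = 0.00151) and with DESeq2 (adjusted p = 0.0397). A stretch of 640 exon bases, 9.44% of the annotated exons of Fgf2, overlaps Nudt6 on the opposite strand. Nudt6 was counted at 2.71 CPM on average.

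Fgf18, a ligand known for its roles in the skeleton and lung, was lower in LPS (ENSMUSG00000057967, chr11:33117430-33147400, minus strand). Its counts were low, with 66, 43 and 18 reads in control replicates 1, 2 and 3 and 9, 3 and 8 reads in LPS replicates 1, 2 and 3. On the CPM scale these were 2.79, 1.90 and 0.743 in control and 0.444, 0.167 and 0.418 in LPS. The groups did not overlap, but control replicate 3 was much nearer to the LPS libraries than the other two controls were, and LPS replicate 2 was at the detection floor. The log2 fold change was -2.37 (SE 0.61, 95% confidence interval -3.88 to -0.86), just outside the threshold with an edgeR adjusted p of 0.0522. Fgf18 passed the count filter only through the control libraries, and with no filter the value was -2.39 with an edgeR adjusted p of 0.059. The replicate block gave -2.29 and an edgeR adjusted p of 0.0369. Without control replicate 3 the value was -2.73 with an edgeR adjusted p of 0.0229, and without both libraries numbered 3 it was -2.87 with an edgeR adjusted p of 0.00325. Leaving out any other single library gave edgeR adjusted p-values of 0.0759 to 0.162, and limma-voom gave 0.0986, so that Fgf18 was called in 6 of 14 alternatives. The summed level of 11 cell cycle genes also differed between libraries, at 427, 493.5 and 836 CPM in control replicates 1, 2 and 3 and 371, 316 and 307 CPM in LPS replicates 1, 2 and 3. The sum of 3 markers of interstitial cells of Cajal, a cell type of the gut wall, was 202, 203 and 68.1 CPM in control and 86.9, 78.3 and 50.5 CPM in LPS. Of these 3, Kit was called lower (edgeR adjusted p = 0.0473), beside 6.71% of all genes. Any part of either list in the Fgf18 values was not tested.

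Fgf10, the mesenchymal ligand closest to Fgf7, did not pass the test (ENSMUSG00000021732, chr13:118669791-118792115, plus strand). It was at 31.4, 30.5 and 18.7 CPM in control replicates 1, 2 and 3 and at 39.4, 31.8 and 33.9 CPM in LPS replicates 1, 2 and 3. The lowest LPS library lay barely above the highest control library, and control replicate 3 was well below the other controls. A log2 fold change of 0.38 was fitted (SE 0.22, 95% confidence interval -0.15 to 0.92, edgeR adjusted p = 0.280). In the RefSeq table the start of Fgf10 lies inside this annotated span, because the annotation used for lengths also holds a start further upstream.

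Fgf9, a ligand made by epithelium and mesothelium of the embryonic gut, was scarce (ENSMUSG00000021974, chr14:58070547-58112720, plus strand). It had 14, 17 and 28 reads in control replicates 1, 2 and 3 and 19, 24 and 9 reads in LPS replicates 1, 2 and 3. The groups overlapped, and pair 3 moved against pairs 1 and 2. The log2 fold change of 0.13 had a 95% confidence interval of -1.0 to 1.26 (edgeR adjusted p = 0.880). A 2-fold change in either direction lay within or at the edge of this interval.

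**Figure D2:**
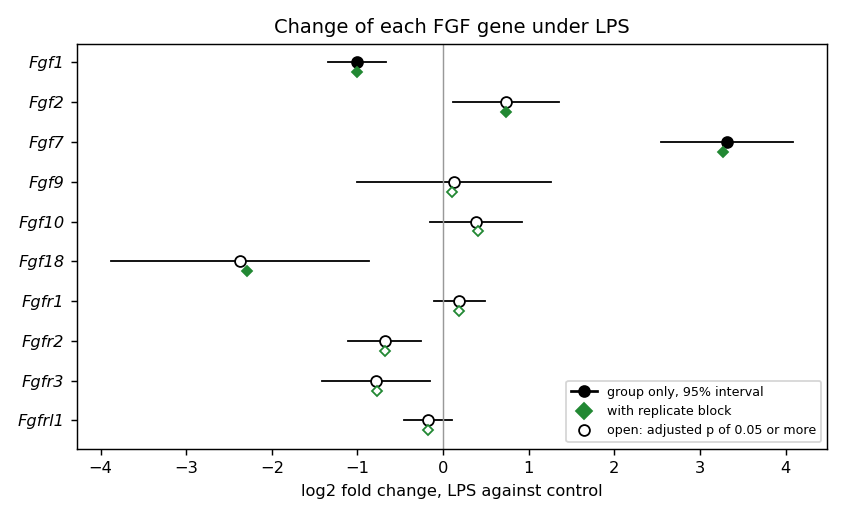
Log2 fold change of LPS against control for each FGF gene from the edgeR fit over all genes, as circles with 95% confidence intervals without the replicate block and as diamonds with it, filled where the adjusted p was under 0.05. Fgf7 lay at 3.32 and Fgf1 at -1.01, and the widest interval was that of Fgf18, from -3.88 to -0.86.

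Among the receptors, 0 of 4 passed the edgeR test with all 6 libraries, beside 15.8% of all genes. By the same test, Fgfr2 and Fgfr3 had an unadjusted p under 0.05, and DESeq2 called Fgfr2. Fgfr2, whose splice forms receive Fgf7 and Fgf10 on the one hand and Fgf2 and Fgf9 on the other, was at 44.5, 45.9 and 33.7 CPM in control replicates 1, 2 and 3 (ENSMUSG00000030849, chr7:130162451-133123350, minus strand). In LPS replicates 1, 2 and 3 it was at 24.4, 22.2 and 30.6 CPM. The groups did not overlap, yet the libraries numbered 3 lay next to each other across the groups, with a ratio of control to LPS of 1.10 in pair 3 against 1.82 and 2.07 in pairs 1 and 2. The log2 fold change was -0.68 (SE 0.18, 95% confidence interval -1.11 to -0.25), with an edgeR adjusted p of 0.0507. It was called in 6 of 15 alternatives, including those without control replicate 3 (edgeR adjusted p = 0.033), without LPS replicate 3 (edgeR adjusted p = 0.024) and without both libraries numbered 3 (log2 fold change -0.93, edgeR adjusted p = 0.000185). The annotated span of Fgfr2 includes 314 exon bases shared with Ctbp2 on the same strand, 3.04% of its exons, and gene counts do not separate the splice forms.

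Fgfr3, a receptor best known from cartilage and also used by neural progenitors, was rare (ENSMUSG00000054252, chr5:33721674-33737068, plus strand). It was at 1.14, 1.64 and 1.65 CPM in control replicates 1, 2 and 3 and at 0.741, 0.891 and 0.941 CPM in LPS replicates 1, 2 and 3. The groups did not overlap, but the values rested on 15 to 40 reads per library. The log2 fold change of -0.78 (SE 0.26, 95% confidence interval -1.41 to -0.15) did not pass the test, with an edgeR adjusted p of 0.0961.

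Fgfr1, the main FGF receptor of mesenchymal and many neural cells, was the most abundant of the 10 genes per kilobase of exon (ENSMUSG00000031565, chr8:25513654-25575718, plus strand). Its level was 337, 338 and 311 CPM in control replicates 1, 2 and 3 and 414, 395 and 316 CPM in LPS replicates 1, 2 and 3. LPS replicates 1 and 2 were above the controls, whereas LPS replicate 3 fell among them. Fgfr1 had a log2 fold change of 0.19 (SE 0.12, 95% confidence interval -0.11 to 0.49, edgeR adjusted p = 0.335), and without LPS replicate 3 it was 0.30 with an edgeR adjusted p of 0.044. Without both libraries numbered 3 it was 0.29 with an edgeR adjusted p of 0.00511.

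Fgfrl1, a receptor-like protein that binds FGFs and heparan sulfate but has no tyrosine kinase domain, was at 38.5, 35.4 and 31.2 CPM in control replicates 1, 2 and 3 (ENSMUSG00000008090, chr5:108692382-108706924, plus strand). In LPS replicates 1, 2 and 3 it was at 33.7, 28.7 and 30.4 CPM, which overlapped with the controls. Its log2 fold change of -0.18 (SE 0.11, 95% confidence interval -0.46 to 0.10, edgeR adjusted p = 0.334) was the most narrowly bounded of the receptors.

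**Figure D3:**
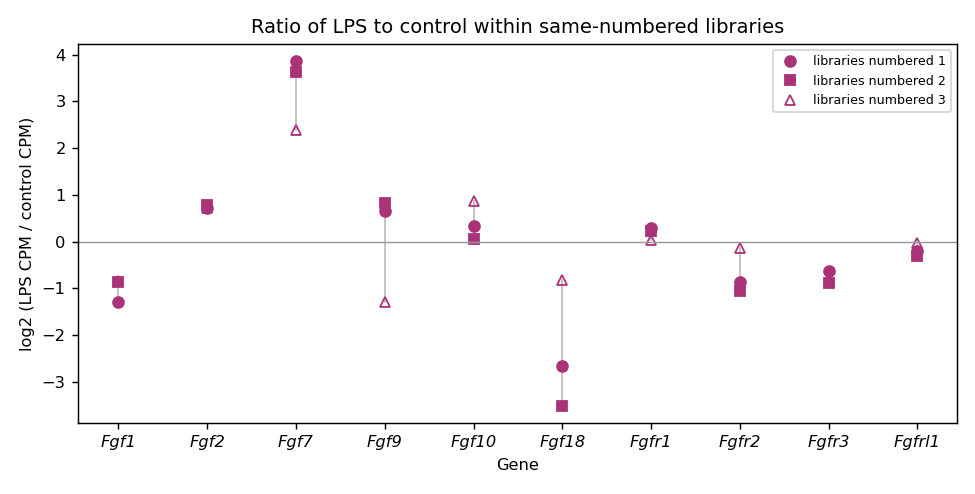
Log2 ratio of LPS to control for each FGF gene within each same-numbered pair of libraries. The 3 pairs of Fgf2 nearly coincided at 0.71, 0.77 and 0.73, whereas pair 3 lay closer to 0 than the other pairs for Fgf7, Fgf18 and Fgfr2, and Fgf9 crossed 0.

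Levels of different genes were then compared as CPM per kilobase of annotated exon. In control, the order of mean levels was Fgfr1 (33.3 CPM per kilobase), Fgf2 (17.9), Fgfrl1 (12.6), Fgf10 (5.84), Fgf1 (5.74), Fgfr2 (4.004), Fgf18 (1.53), Fgf7 (0.610), Fgfr3 (0.206) and Fgf9 (0.179). The ranges of the 3 libraries overlapped between the neighbours Fgf10 and Fgf1, Fgf18 and Fgf7, and Fgfr3 and Fgf9. In LPS, Fgf7 moved up from rank 8 to rank 5 of 10, at 6.11 CPM per kilobase, and its range overlapped that of Fgf10 at 7.62. Ranges in LPS also overlapped between Fgfr1 (38.0) and Fgf2 (29.8) and between Fgf1 (2.86) and Fgfr2 (2.49). The range of Fgf9 (0.197) overlapped those of Fgf18 (0.289) and Fgfr3 (0.120), which did not overlap each other. Among all tested genes with an exon length, Fgf7 went from percentile 14.4 of the mean control level per kilobase to percentile 54.8 of the LPS level, Fgf18 from 26.2 to 7.35 and Fgf1 from 54.3 to 37.8. Fgfr1 stayed near percentile 91 in both groups (91.3 and 91.1). With the length of the longest annotated transcript in place of all exons, Fgfr2 moved from rank 6 to rank 4 in control, at 9.34 CPM per kilobase.

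The make-up of the ligand pool was described by the share of each ligand in the summed level per kilobase of the 6 ligands. Fgf2 held the largest share in every library, 48.7% to 68.4% in control and 57.9% to 72.5% in LPS. The share of Fgf7 was 1.58% to 2.22% in control and 7.41% to 16.6% in LPS, while that of Fgf1 was 14.7% to 20.1% in control and 5.22% to 7.74% in LPS. Fgf10 kept overlapping shares of 12.0% to 23.0% and 13.98% to 18.4%. The summed ligand level itself was 28.7 to 33.8 CPM per kilobase in control and 41.3 to 52.8 in LPS, and that of the receptors was 46.2 to 52.4 in control and 46.0 to 56.5 in LPS. Among the receptors, the share of Fgfr1 was 65.1% to 68.2% in control and 69.5% to 76.1% in LPS, and that of Fgfr2 was 7.06% to 8.61% and 4.09% to 6.44%.

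**Figure D4:**
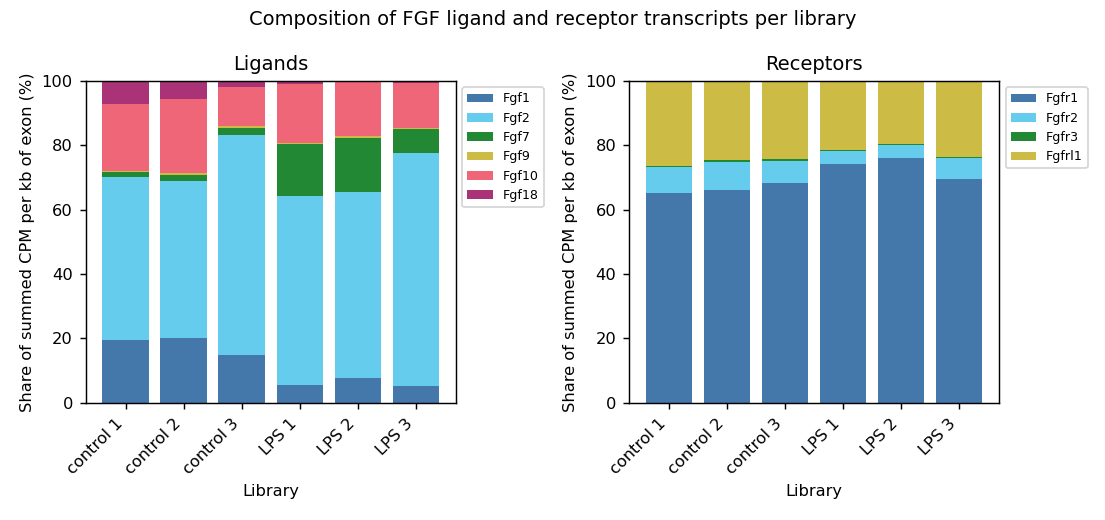
Share of each gene in the summed level per kilobase of the 6 ligands and of the 4 receptors, in percent, for each library. Fgf7 took 1.58% to 2.22% of the ligand sum in control and 7.41% to 16.6% in LPS, and Fgfr1 held over 65% of the receptor sum in every library.

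Ratios within a library do not depend on its scaling. The ratio of Fgf7 to Fgf10, both per kilobase, was 0.0765, 0.0843 and 0.184 in control replicates 1, 2 and 3, against 0.885, 0.991 and 0.530 in LPS replicates 1, 2 and 3. Fgf10 thus exceeded Fgf7 in every library, but in LPS replicate 2 the order depended on the length used, since with the longest annotated transcript the ratio was 1.08 there and 0.962 and 0.576 in LPS replicates 1 and 3. The ratio of Fgf2 to Fgf1 was 2.58, 2.42 and 4.64 in control and 10.4, 7.48 and 13.9 in LPS. That of Fgfr1 to Fgfr2 was 7.92, 7.69 and 9.66 in control and 17.7, 18.6 and 10.8 in LPS. For each of these 3 ratios the groups did not overlap. The two-sided exact permutation test gave p = 0.1 for each, the smallest that 3 against 3 libraries allow, so that p under 0.05 could not be reached. For Fgf2 to Fgf1 the outcome was fixed by the levels already given, as Fgf2 was higher and Fgf1 lower in every LPS library. How often ratios of other gene pairs overlap was not examined.

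The genes whose profile was most like that of Fgf7 were sought among 11480 genes with a mean of at least 5 CPM, by the root mean square distance between centred log2 (CPM + 0.5) values over the 6 libraries. The closest was Tfpi2, a secreted inhibitor of serine proteases, at a distance of 0.113. It had 6.43, 5.79 and 7.19 CPM in control replicates 1, 2 and 3 and 67.6, 70.1 and 40.9 CPM in LPS replicates 1, 2 and 3. Serpina3g followed at 0.167, a member of a family of close copies among which reads may be divided uncertainly, and then Slc16a3, a lactate transporter, at 0.180. Tfpi2, Serpina3g and Slc16a3 had their lowest LPS level and their highest control level in replicate 3, as did Fgf7. They were chosen for likeness over these 6 libraries, so this shared pattern is no separate result.

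Next, the other genes of FGF signalling were examined from lists of 73 genes, of which 58 passed the count filter. The edgeR test called 7 of these higher and 5 lower in LPS, 12 of 58 beside the 15.8% of all genes, and their median log2 fold change was -0.02. With the replicate block it called 8 higher and 13 lower, beside 15.4% and 14.9% of all genes. Without both libraries numbered 3 it called 14 higher and 17 lower, beside 22.6% and 20.4% of 15466 genes. Fits with libraries left out were filtered anew, so their calls can include genes outside the 58. Here these were Fgf23, called higher, and Fgfbp1, called lower. When single libraries were left out, the number called ranged from 2, without control replicate 1 or without control replicate 2, to 16, without LPS replicate 3, and it was 4 without LPS replicate 1 or LPS replicate 2. Gpc6 and Map2k1 were called in all 6 of these fits, and the other 10 genes lost their call in at least 1 of them.

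Proteins that present FGFs to their receptors moved in both directions, with 3 of 14 tested higher, 3 lower and 8 not called, beside 9.09% of all genes higher and 6.71% lower. The replicate block gave 3 higher and 5 lower, beside 15.4% and 14.9% of all genes. Without both libraries numbered 3, 4 were called higher and 7 lower, beside 22.6% and 20.4%. The 7 include Fgfbp1, which was not among the 14 and passed the new filter only through the control libraries. With all 6 libraries, those called higher were the syndecans Sdc1, Sdc3 and Sdc4, which carry heparan sulfate on the cell surface. Sdc4 was at 78.4, 82.7 and 97.0 CPM in control replicates 1, 2 and 3 and at 263, 283 and 172 CPM in LPS replicates 1, 2 and 3 (log2 fold change 1.48, SE 0.21, edgeR adjusted p = 0.00991). Sdc1 changed by 1.42 (SE 0.33, edgeR adjusted p = 0.0409) and Sdc3 by 1.01 (SE 0.16, edgeR adjusted p = 0.0149), both highest in LPS replicate 3. The fourth syndecan, Sdc2, had a log2 fold change of -0.81 (edgeR adjusted p = 0.0541) and was called lower with the replicate block (edgeR adjusted p = 0.0144). Those called lower were the glypicans Gpc6 and Gpc2, heparan sulfate proteoglycans with a lipid anchor, and the FGF-binding protein Fgfbp3. Gpc6 was at 147, 148 and 106 CPM in control replicates 1, 2 and 3 and at 57.2, 57.3 and 54.4 CPM in LPS replicates 1, 2 and 3 (log2 fold change -1.25, SE 0.14, edgeR adjusted p = 0.00507). The log2 fold changes of Gpc2 and Fgfbp3 were -1.42 and -0.73, with edgeR adjusted p-values of 0.0239 and 0.043.

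Of the 14 enzymes that build heparan sulfate or, like Sulf1, Sulf2 and Hpse, trim it, 1 rose, 1 fell and 12 were not called, beside 9.09% of all genes higher and 6.71% lower. Ext1, a polymerase of the heparan sulfate chain, rose by 1.04 on the log2 scale (SE 0.19, edgeR adjusted p = 0.022), and Hs2st1, which adds the sulfate that FGF2 contacts, fell by 0.57 (SE 0.11, edgeR adjusted p = 0.0253). With the replicate block, 1 was called higher and 5 lower, beside 15.4% and 14.9% of all genes, and without both libraries numbered 3 there were 2 higher and 5 lower, beside 22.6% and 20.4%. Of the 14 adaptors and kinases below the receptor, Map2k1 and Map2k2, the kinases MEK1 and MEK2, rose and Plcg1, phospholipase C gamma 1, fell, beside the same shares of all genes. Map2k1 went from 136, 140.3 and 142 CPM in control replicates 1, 2 and 3 to 307, 352 and 259.8 CPM in LPS replicates 1, 2 and 3 (log2 fold change 1.13, SE 0.12, edgeR adjusted p = 0.00422). Map2k2 changed by 0.27 (edgeR adjusted p = 0.0477) and Plcg1 by -0.54 (edgeR adjusted p = 0.015). The block gave 3 higher and 1 lower in this list, beside 15.4% and 14.9% of all genes, and leaving out both libraries numbered 3 gave 3 and 2, beside 22.6% and 20.4%.

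Of the 11 targets and feedback inhibitors of FGF signalling, 1 rose and 10 were not called, beside 9.09% of all genes higher and 6.71% lower. The gene that rose was Spred3, an inhibitor of the MAP kinase cascade, with 24.8, 24.6 and 24.4 CPM in control replicates 1, 2 and 3 and 38.4, 38.5 and 32.3 CPM in LPS replicates 1, 2 and 3 (log2 fold change 0.57, SE 0.10, edgeR adjusted p = 0.0173). The target genes Dusp6, Etv4 and Etv5 had log2 fold changes of 0.11, 0.49 and -0.77, with edgeR adjusted p-values of 0.837, 0.0891 and 0.122. With the replicate block, Etv5 (edgeR adjusted p = 0.00874) and the inhibitor Spry4 (log2 fold change -0.55, edgeR adjusted p = 0.0461) were called lower. Without both libraries numbered 3, 3 targets and inhibitors were called higher (Spred2, Spred3, Etv4) and 3 lower (Spry2, Spry4, Etv5), beside 22.6% and 20.4% of all genes. The list as a whole had a median log2 fold change of -0.07.

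**Figure D5:**
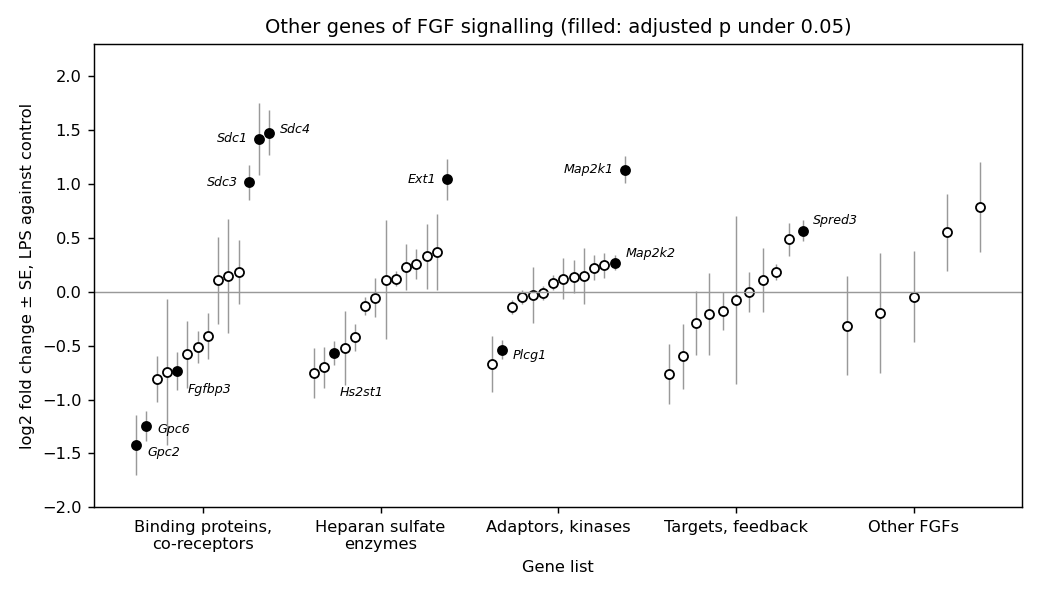
Log2 fold change with standard error, LPS against control, of the tested genes of FGF signalling other than the 10 FGF genes, in 5 lists, with filled points for an edgeR adjusted p under 0.05. Calls lie on both sides of 0, from -1.42 for Gpc2 to 1.48 for Sdc4.

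The remaining FGF, FGFR and Klotho genes were mostly silent. Of 19 genes, 5 passed the filter (Fgf5, Fgf11, Fgf12, Fgf13 and Fgf14). By edgeR 0 of these 5 were called, beside 15.8% of all genes, and 0 had an unadjusted p under 0.05. The most abundant was Fgf13, an intracellular member of the family, with a mean of 19.7 CPM in control and 15.9 CPM in LPS. Fgfr4 had at most 1 read in a library, and 3 genes, Fgf4, Fgf6 and Fgf22, had none. Fgf23, a hormone of phosphate balance made mainly in bone, was singled out after its values were seen. It had 1, 1 and 0 reads in control replicates 1, 2 and 3 and 21, 29 and 3 reads in LPS replicates 1, 2 and 3, and it did not pass the count filter. When no filter was applied, the edgeR adjusted p of Fgf23 was 0.0434, beside 7.76% of 24879 genes called, 4.48% higher and 3.28% lower, but LPS replicate 3 was at the detection floor. Without both libraries numbered 3, Fgf11 (log2 fold change 0.76, edgeR adjusted p = 0.012) and Fgf23 (4.77, edgeR adjusted p = 0.000967) were called higher, beside 22.6% of all genes. Fgf23 passed the filter of that fit only through the LPS libraries, where it was high.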

How the data were processed

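Poly(A) RNA of 3 control and 3 LPS samples was sequenced from stranded libraries. The deposited values are raw counts per gene, whole numbers made by the authors. The submitters' processing notes name cutadapt 1.15, Bowtie2 2.3.3.1, STAR 2.5.2b, SAMtools 1.5, featureCounts 1.5.3 and GRCm38. The strand setting of the counting is not given in the sources used here. A joint table of all samples was not used.

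Genes were filtered with filterByExpr (minimum count 10, minimum total 15), scaled with TMM factors (0.917 to 1.08) and tested with the quasi-likelihood F-test of edgeR 4.0.16 (R 4.3.3), two-sided, group as the single term, with Benjamini-Hochberg adjustment over 15226 genes and a threshold of 0.05. Coordinates and exon lengths come from GENCODE M21, which held 46005 of the 46603 identifiers. The FGF genes and all lists were chosen with earlier results of these data known. All 10 FGF genes are named. The level of 1 glial marker is not reported here. Of the lists of FGF signalling, genes called by this edgeR test on all 6 libraries are named, with a few others as examples. Of the marker lists, only some called genes are named.

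Alternatives were relative log expression and upper-quartile factors, library size alone, no filter, at least 10 counts in every library, DESeq2 1.42.0, limma-voom 3.58.1, leaving out each library, and a block for the replicate number. Deviations from the group means correlated at r = 0.513, 0.334 and 0.613 between the same-numbered libraries 1, 2 and 3, all above 0.1, so the numbers were treated as pairs, from the data and not from the labels. Control 1 with LPS 2 gave 0.419 and control 2 with LPS 1 gave 0.323, so that the data set the libraries numbered 3 apart but did not tell pairs 1 and 2 from each other. No 2 libraries held identical values.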

Additional observations from a re-analysis of the deposited data

How the results depend on the processing

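Fgf7 was called higher in every alternative run. The direction of each FGF gene held throughout except that of Fgf9, whose log2 fold change was -0.012 with library size alone, -0.056 without control replicate 1 and -0.24 without LPS replicate 2, and between -0.24 and 0.46 with 1 library left out. The counts of calls moved more than the fold changes did. Over all genes, 1384 were higher and 1022 lower, against 2079 and 1673 with DESeq2, 2343 and 2273 with the replicate block, and 3498 and 3159 without both libraries numbered 3. Scaling by the upper quartile gave 1589 lower, and by library size alone 2054. Leaving out 1 library gave 379 to 1964 higher and 112 to 1426 lower. Of the FGF genes, 1 was higher and 1 lower, against 2 and 3 with DESeq2, 2 and 2 with the replicate block, and 3 and 3 without both libraries numbered 3. Upper-quartile factors gave 3 lower and library size alone 4, namely Fgf1, Fgf18, Fgfr2 and Fgfr3. Leaving out 1 library gave 1 to 2 higher and 0 to 3 lower. Of the FGF signalling genes, 12 were called, against 21 with the replicate block and 2 to 16 with 1 library left out. Without both libraries numbered 3 it was 31, among them Fgf23 and Fgfbp1, which did not pass the filter with all 6 libraries. Scaling shifted the median over all genes, on the log2 scale, from -0.02 (TMM) to -0.12 (upper quartile) and -0.18 (library size alone), which bears on genes near the threshold such as Fgfr2, Fgfr3 and Fgf18. The cause of the moved counts was not tested. The replicate block changed the call of Fgf2 and Fgf18 and of no other FGF gene. At least 10 counts in every library removed Fgf9 and Fgf18, which therefore have no value there. With the longest transcript as length, control levels per kilobase were 7.87 for Fgf1, 0.741 for Fgf7, 65.1 for Fgfr1, 9.34 for Fgfr2, 0.348 for Fgfr3 and 15.05 for Fgfrl1. Depth limits Fgf9, Fgf18 and Fgfr3, each under 70 reads in every library.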
